A study of Mus musculus with 6 samples.

Results

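TRIM28, SETDB1, the HP1 proteins and their partners form a machinery that packs DNA into silent chromatin, and this account follows the 10 genes Trim28, Setdb1, Atf7ip, Cbx1, Cbx3, Cbx5, Suv39h1, Suv39h2, Atrx and Daxx in mouse embryonic stem (ES) cells without and with the zinc-finger gene Zscan10. The genes were taken by symbol from the deposited expression files. All 10 were found, each as 1 of the 23244 loci listed, and all 10 exceeded the minimum mean of 1 FPKM (fragments scaled to transcript length and library size) used for testing.

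RNA sequencing was done on 6 libraries of ES cells. The null group (3 libraries) is subcloned ES cells in which Zscan10 is knocked out constitutively. The control group (3 libraries) is an ES line with inducible Cre-loxP knockout, its floxed Zscan10 (f/f) left in place; its titles carry the mark -Tx, which the labels do not explain. The labels do not tell whether the replicates of each group are separate cultures, so p-values here reflect only the spread among these libraries, which may be technical. How many subclones make up the null group is not given, and genotype, subcloning and the mark -Tx cannot be told apart.

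In ES cells, KRAB zinc-finger proteins bind retroelements by their DNA sequence and recruit TRIM28 (KAP1), a scaffold that in turn brings SETDB1, an enzyme that trimethylates lysine 9 of histone H3. ATF7IP binds SETDB1 and protects it in the nucleus. The HP1 proteins (CBX1, CBX3 and CBX5) bind the methylated lysine, SUV39H1 and SUV39H2 write the same mark mainly at pericentromeric repeats, and ATRX with DAXX deposits the histone variant H3.3 at silent repeats and telomeres. Loss of TRIM28 or SETDB1 in mouse ES cells is known to release endogenous retroviruses.

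Zscan10 was at 5.49, 4.43 and 5.47 FPKM in null libraries and at 44.2, 43.0 and 41.9 FPKM in control libraries, so every library matched its label (log2 fold change -2.85, limma adjusted p = 2.88e-06). FPKM summed to between 664555 and 678200 in null libraries and between 685905 and 699401 in control libraries. Low values of seldom detected genes, each read as 1 fragment, put the depth roughly at 7160000 to 7870000 fragments in null and 7280000 to 8020000 in control libraries. This reading is too low where such genes held more than 1 fragment. The 6 ES cell markers Pou5f1, Nanog, Sox2, Esrrb, Klf4 and Zfp42 summed to 1650 to 1770 FPKM in null and 1820 to 1860 FPKM in control libraries, with 2 of them, Esrrb and Zfp42, lower in null libraries by limma. Of the other lists of markers, the 5 endoderm genes summed to 2.42 to 3.04 FPKM in null and 2.96 to 4.0 FPKM in control libraries, and 4 of them were under 1 FPKM in both groups. The 6 fibroblast markers, for feeder cells, summed to 7.24 to 13.3 FPKM in null and 15.3 to 18.8 FPKM in control libraries. Of these, limma called Thy1 higher and Acta2 and Tagln lower, and the collagen genes were too low to test, Col1a1 averaging 0.0861 FPKM in null and 0.738 FPKM in control libraries and Col3a1 0.395 FPKM in null and 0.363 FPKM in control libraries. The neuroectoderm list summed to 59.9 to 68.2 FPKM in null and 77.8 to 86.3 FPKM in control libraries, mostly from Tubb3. The 4 trophectoderm markers summed to 5.76 to 7.29 FPKM in null and 7.11 to 7.56 FPKM in control libraries (Hand1 and Esx1 higher and Krt19 lower by limma, Hand1 and Esx1 being under 1 FPKM in control libraries), and the 4 mesoderm markers, mostly Eomes, to 3.92 to 5.51 FPKM in null and 1.77 to 2.18 FPKM in control libraries. None of the markers was at 0 in all 6 libraries. The part of these differences in the results was not tested. In bulk RNA, fewer cells of a type and less RNA per cell cannot be told apart.

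Of the 10 heterochromatin genes, Atrx, Setdb1 and Cbx5 were higher in null libraries and 0 were lower. Null levels were 1.44 times the control level for Atrx, 1.28 times for Setdb1 and 1.15 times for Cbx5. The other 7 genes, Trim28 among them, did not pass the threshold, an adjusted p under 0.05 in limma's test across all 11480 loci tested; 0 members had a lower level even at an unadjusted p under 0.05. Among all tested loci 25.2% passed the same threshold, 12.8% higher and 12.4% lower, so 3 of 10 called is near the background. The number called among all loci changed when a library was left out, where fewer samples enter. With all libraries 2894 loci passed. Without control replicates 1, 2 and 3 in turn, 1741, 1697 and 1939 passed. Without null replicates 1, 2 and 3 in turn, 2903, 2081 and 1976 passed. The 3 members stayed called each time. The median log2 fold change was 0.08 over the members and -0.0030 over all tested loci, and the median absolute log2 fold change was 0.11 over the members and 0.14 over all tested loci. The null and control values did not overlap for 5 of the 10 genes (4 higher and Suv39h2 lower in null libraries), against 44.1% of all tested loci.

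**Figure D1:**
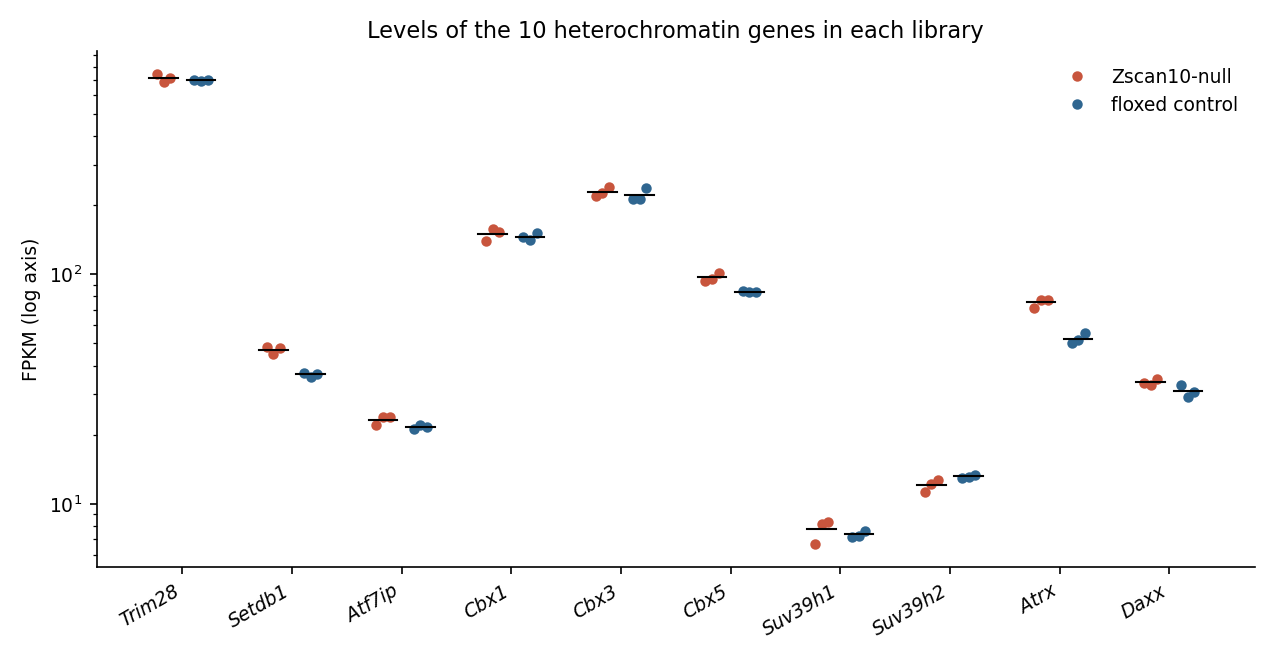
FPKM of the 10 genes in every library, on a log axis; points are single libraries, with null on the left and control on the right of each gene, and black lines are group means. Atrx, Setdb1 and Cbx5 sit higher in all 3 null libraries than in any control library, while the order of the genes by level is the same in both groups.

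The levels of the genes, compared per length as FPKM, kept the same order in both groups. From the highest mean level to the lowest, the order was Trim28, Cbx3, Cbx1, Cbx5, Atrx, Setdb1, Daxx, Atf7ip, Suv39h2 and Suv39h1. Within each group, the ranges of neighbours in this order did not overlap. Trim28 ranked 138th and Suv39h1 7095th by mean FPKM among the 11480 tested loci. Null replicate 1 was the lowest null library for 7 of the 10 genes and null replicate 3 was the lowest for 0.

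The stretch of 250 bases before the RefSeq start site is printed for the genes that were higher, because these 3 moved in the same direction, with coordinates on GRCm38.p6, the assembly that mm10 names. The Setdb1 stretch is chr3:95357203-95357452, the Atrx stretch chrX:105929373-105929622 and that of the first of the 2 Cbx5 starts listed chr15:103239853-103240102, each on the minus strand and written 5′ to 3′. Capitals mark matches, on either strand, to any of the GC box GGGCGG, the CCAAT box CCAAT, the ETS core CCGGAAG, the YY1 core AAGATGG, the CRE TGACGTCA and the E-box CACGTG; in these 3 stretches no match overlaps another. The Cbx5 stretch ends inside the Cbx5 locus as placed here, whose outermost start lies further upstream, and the bases after it were not found in the Cbx5 transcripts of GENCODE M21.
Setdb1: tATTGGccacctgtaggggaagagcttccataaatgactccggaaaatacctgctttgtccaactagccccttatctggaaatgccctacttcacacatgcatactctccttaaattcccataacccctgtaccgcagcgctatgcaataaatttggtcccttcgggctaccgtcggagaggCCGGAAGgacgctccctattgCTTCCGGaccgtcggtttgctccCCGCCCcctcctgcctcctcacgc
Atrx: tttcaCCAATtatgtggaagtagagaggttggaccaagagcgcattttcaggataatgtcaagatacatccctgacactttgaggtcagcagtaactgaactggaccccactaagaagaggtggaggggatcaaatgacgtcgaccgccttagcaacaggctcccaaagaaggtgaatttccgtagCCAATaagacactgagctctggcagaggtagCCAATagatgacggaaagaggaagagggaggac
Cbx5: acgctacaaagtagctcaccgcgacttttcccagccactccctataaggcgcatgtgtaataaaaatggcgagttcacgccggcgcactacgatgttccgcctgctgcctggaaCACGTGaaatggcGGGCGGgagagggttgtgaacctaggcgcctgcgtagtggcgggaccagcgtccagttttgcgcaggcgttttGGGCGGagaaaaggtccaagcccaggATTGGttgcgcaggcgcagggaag

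The printed stretches hold 1 CCAAT box before Setdb1, 3 before Atrx and 1 before Cbx5, but the window of the other listed Cbx5 start (chr15:103215353-103215602) holds 0. That box is found in 33.8% of the 32851 windows of this length in the RefSeq promoter table and before 6 of the 10 members, counting every listed start of a gene. A gene with several starts has several windows, so the count of genes is not like the share of windows. The 6 include Atf7ip, Suv39h1 and Daxx, which were not called. The GC box had 1 match before Setdb1, 0 before Atrx and 2 before Cbx5, against 32.7% of all windows with a match. Counted by gene in the same way, it was found before 9 of the 10 members. The ETS core had 2 matches, both before Setdb1 among the 3 stretches, against 6.91% of all windows with a match. The E-box had 1 match, before Cbx5 (6.02% of all windows). The YY1 core (4.49% of all windows) and the CRE (1.55%) had none in the 3 stretches. The GC content was 54.4% before Setdb1, 48.4% before Atrx and 59.2% before Cbx5, against a median of 52.4% over all windows, and the CpG counts were 13, 6 and 22 against a median of 6.0. A match is a run of letters and not a binding site.

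Trim28, the scaffold of the machinery (chromosome 7, 13024152 to 13031032 on mm10), was by far the most abundant of its members. It was at 742, 687 and 717 FPKM in null libraries and at 703, 695 and 697 FPKM in control libraries. The highest and the lowest of the 6 values are both null libraries, so the groups overlap. The means were 715 ± 27.8 FPKM in null and 698 ± 4.26 FPKM in control libraries (SD, n = 3 each). The log2 fold change of FPKM + 1 was 0.03 with a 95% interval of -0.05 to 0.12 (limma adjusted p = 0.537). GENCODE M21 draws Trim28 over a longer span that holds Zbtb45, on the other strand, and the exons of the 2 genes share 0 bases there.

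Setdb1, the histone H3 lysine 9 methyltransferase that TRIM28 recruits (chromosome 3, 95323525 to 95357202), rose in the null line. It was at 48.4, 44.7 and 47.8 FPKM in null libraries and at 37.3, 35.7 and 36.8 FPKM in control libraries. Every null library was above every control library, and the gap between the groups was wider than the range within either. The means were 47.0 ± 1.97 FPKM in null and 36.6 ± 0.850 FPKM in control libraries (SD, n = 3 each), a difference of 28.3%. On the log2 scale Setdb1 was higher by 0.35 (SE 0.04, limma adjusted p = 0.00228). Exons of Setdb1 and of Cers2, a gene on the other strand, share 75 bases in GENCODE M21, and 249 more are shared with Gm37500; Cers2 averaged 33.9 FPKM in null and 27.3 FPKM in control libraries. Whether strand was used in counting is not stated, and the part of shared reads in the difference was not tested. A stretch of 271 bases matches 1 annotated gene nearly exactly, and whether that gene is Gm37500 itself was not recorded.

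Atf7ip, the partner of SETDB1 (chromosome 6, 136518789 to 136610850), did not pass the threshold. It was at 22.1, 23.8 and 23.9 FPKM in null libraries and at 21.1, 22.1 and 21.6 FPKM in control libraries. The groups touch without overlapping, the lowest null value, 22.0745 FPKM, lying just above the highest control value, 22.0678 FPKM. The log2 fold change was 0.10 with a 95% interval of -0.01 to 0.22 (limma adjusted p = 0.167). Exons of Atf7ip share 83 bases with Gm44140 on the other strand. The ratio of Atf7ip to Setdb1 FPKM was 0.457, 0.533 and 0.500 in null libraries and 0.565, 0.619 and 0.587 in control libraries. All null ratios were below all control ratios, with a mean difference of -0.25 on the log2 scale (exact two-sided permutation p = 0.1, the smallest that the 20 assignments of 6 libraries allow). The ratio of Trim28 to Setdb1 FPKM averaged 15.2 ± 0.205 in null and 19.1 ± 0.352 in control libraries (SD, n = 3 each).

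Of the HP1 genes, Cbx5, which encodes HP1 alpha (chromosome 15, 103191546 to 103239904), rose, and Cbx1 and Cbx3 did not pass the threshold. Cbx5 was at 93.8, 95.1 and 101.4 FPKM in null libraries and at 84.1, 83.3 and 84.0 FPKM in control libraries. The control values lay close together, and the null values were all above them. Their coefficient of variation in control libraries (SD as a percentage of the mean) was 0.496%. That is below the 1.4% or so that counting alone would give at the rough depth of the lowest library. The control spread of Cbx5 may thus be understated. The means were 96.7 ± 4.10 FPKM in null and 83.8 ± 0.416 FPKM in control libraries (SD, n = 3 each). On the log2 scale Cbx5 was higher by 0.20 (SE 0.04, limma adjusted p = 0.0107).

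Cbx1, which encodes HP1 beta (chromosome 11, 96788680 to 96808982), was at 139, 157 and 152 FPKM in null libraries and at 145, 141 and 151 FPKM in control libraries. The groups overlap, with the lowest of all 6 values in a null library. The log2 fold change was 0.04 with a 95% interval of -0.08 to 0.16 (limma adjusted p = 0.630), and its sign turned under quantile normalization and without null replicate 2. Chromosome 11 as a whole was lower in the null line: of its 941 tested loci 57 were called higher and 260 lower; their median was -0.12 on the log2 scale, while the chromosomes of the other members had medians between -0.02 and 0.03. Set against the median of its own chromosome, the difference of Cbx1 was 0.16 (limma adjusted p = 0.0607).

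Cbx3, which encodes HP1 gamma (chromosome 6, 51470154 to 51483704), was at 218, 225 and 239 FPKM in null libraries and at 213, 213 and 236 FPKM in control libraries. The groups overlap, since control replicate 3 is above null replicates 1 and 2. The log2 fold change was 0.04 with a 95% interval of -0.08 to 0.17 (limma adjusted p = 0.590), and its sign turned under quantile normalization. Transcripts of 9 other annotated genes, 7 of them pseudogenes, match Cbx3 over at least 200 bases at 95% identity or more, so its reads can be shared and its level is uncertain. The HP1 genes together summed to 474 ± 21.05 FPKM in null and 450 ± 18.1 FPKM in control libraries (SD, n = 3 each).

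Within the HP1 sum, Cbx3 supplied the largest share, 48.4%, 47.2% and 48.5% in null libraries and 48.2%, 48.7% and 50.2% in control libraries. These shares overlap between the groups, with a mean difference of -1.01 percentage points (exact two-sided permutation p = 0.3). Cbx5 supplied 20.8%, 19.9% and 20.6% in null libraries and 19.05%, 19.03% and 17.8% in control libraries. The Cbx5 shares do not overlap, and no test of them was run. Cbx1 supplied 31.6 ± 1.19% in null and 32.3 ± 0.374% in control libraries (SD, n = 3 each).

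**Figure D2:**
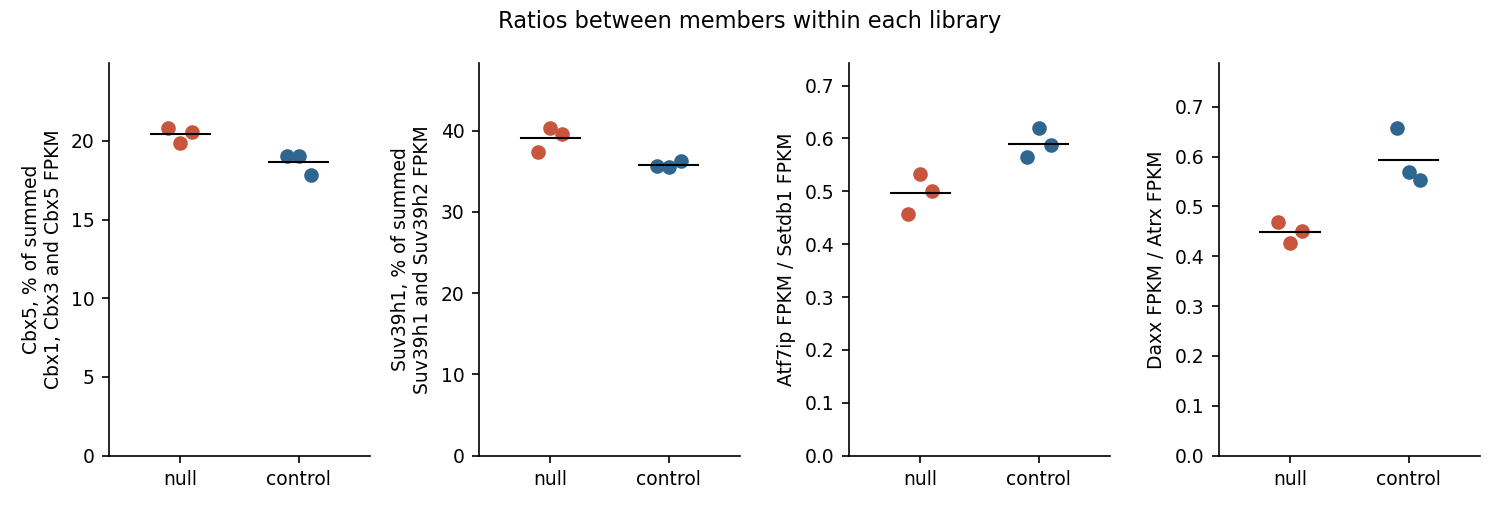
Cbx5 as a percentage of the summed HP1 FPKM, Suv39h1 as a percentage of the summed SUV39H FPKM, and the Atf7ip to Setdb1 and Daxx to Atrx FPKM ratios; points are single libraries, null on the left and control on the right, black lines are means, and axes start at 0. In each panel the null and control libraries are separate, with the Daxx to Atrx ratio at 0.449 in null and 0.593 in control libraries on average. The Cbx3 share, which was tested and overlapped between the groups, is not drawn. The Cbx5 share drawn in its place was not tested.

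The genes of the SUV39H methyltransferases, which write the mark at pericentromeric repeats, were the lowest of the set and did not pass the threshold. Suv39h1 (chromosome X, 8061171 to 8074760) was at 6.72, 8.20 and 8.32 FPKM in null libraries and at 7.20, 7.25 and 7.64 FPKM in control libraries. Its null libraries include both the lowest and the highest value. The log2 fold change was 0.06 with a 95% interval of -0.14 to 0.26 (limma adjusted p = 0.643), the widest interval of the members. Exons of Suv39h1 share 767 bases with the antisense gene Gm14820. A stretch of 600 bases matches 1 annotated gene, and whether that gene is Gm14820 itself was not recorded. Roughly 150 fragments lay on Suv39h1 in its lowest library, for which counting alone gives a relative error of about 8.2%, set beside a coefficient of variation of 11.5% among null and 3.28% among control libraries.

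Suv39h2 (chromosome 2, 3455815 to 3474986) was the only member with a negative log2 fold change. It was at 11.2, 12.2 and 12.7 FPKM in null libraries and at 13.01, 13.2 and 13.4 FPKM in control libraries. The groups do not overlap, but the difference of -0.12 had a 95% interval of -0.26 to 0.01 and did not pass (limma adjusted p = 0.163). The coefficient of variation among control libraries, 1.57%, was below the 5.3% or so that counting alone would give in the lowest library. The exons of Suv39h2 and of the DNA repair gene Dclre1c on the other strand share 357 bases. Dclre1c averaged 25.6 FPKM in null and 17.6 FPKM in control libraries, and the part of shared reads in the Suv39h2 value was not tested. Suv39h1 made up 37.4%, 40.3% and 39.5% of the summed SUV39H FPKM in null libraries and 35.6%, 35.5% and 36.3% in control libraries. The shares do not overlap, with a mean difference of 3.26 percentage points (exact two-sided permutation p = 0.1, the smallest possible here).

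Atrx, the chromatin remodeller of the ATRX-DAXX pair (chromosome X, 105797615 to 105929372), had the largest difference of the 10 genes. It was at 71.4, 77.2 and 77.4 FPKM in null libraries and at 50.1, 51.5 and 55.4 FPKM in control libraries. All null values were above all control values, and the gap between the groups was wider than the range within either. The means were 75.3 ± 3.4 FPKM in null and 52.3 ± 2.74 FPKM in control libraries (SD, n = 3 each), a difference of 43.9%. On the log2 scale Atrx was higher by 0.52 (SE 0.05, limma adjusted p = 0.00105), and 396 of the 11480 tested loci had a larger positive one. The 400 tested loci of chromosome X had a median of 0.01.

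Daxx, the H3.3 chaperone that works with ATRX (chromosome 17, 33909404 to 33915590), did not pass. It was at 33.5, 32.9 and 34.9 FPKM in null libraries and at 32.9, 29.3 and 30.6 FPKM in control libraries. The groups overlap by a hair, null replicate 2 lying just below control replicate 1. The log2 fold change was 0.12 with a 95% interval of -0.0013 to 0.25 (limma adjusted p = 0.131). The ratio of Daxx to Atrx FPKM was 0.470, 0.426 and 0.450 in null libraries and 0.657, 0.569 and 0.553 in control libraries. All null ratios lay below all control ratios, with a mean difference of -0.40 on the log2 scale (exact two-sided permutation p = 0.1, the smallest possible here). Adjusted over the 4 ratios and shares tested, the exact p-values were 0.133 for the 3 that separated the groups and 0.3 for the Cbx3 share.

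**Figure D3:**
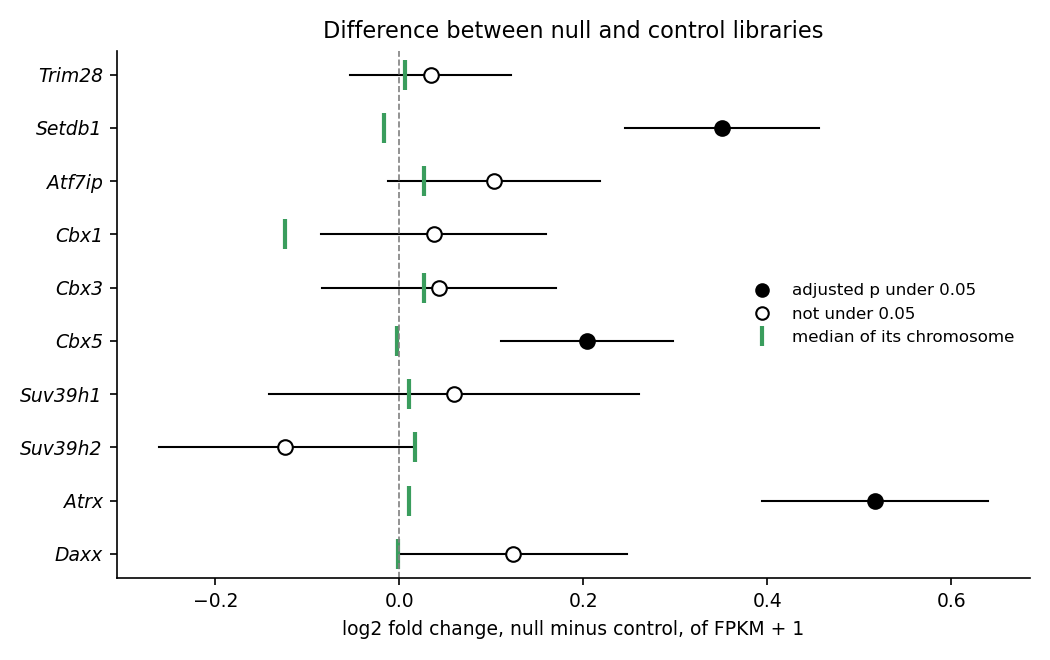
Log2 fold change of FPKM + 1, null minus control, for the 10 genes, with 95% intervals from limma; filled points passed an adjusted p of 0.05, and green bars mark the median of all tested loci on the gene's chromosome. The intervals of Atrx, Setdb1 and Cbx5 lie right of 0, and the Cbx1 point lies right of the lowered median of chromosome 11.

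Genes linked to the members were followed in 7 lists, with 2 further lists of genes described as kept down by silent chromatin. Of the 7 lists, that of the H3K9 demethylases holds enzymes that act against the methyltransferases. Over all these lists together, of 87 listed genes 79 were tested, and 23 were higher and 3 lower in null libraries. That is 32.9% called, against 25.2% of all tested loci. The total includes the MERVL-linked list, at 75.0% called, and the germline list, at 33.3%. Called shares of the 7 lists of genes linked to the members ran from 0.0% to 44.4%. The median log2 fold change was 0.10 over all 79 tested genes. At an unadjusted p under 0.05 stood 37 of the 79, against 39.2% of all tested loci. Under quantile normalization 19 of them were called in place of 26. Single lists hold 6 to 12 tested genes, so a share per list rests on few genes.

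Among the KRAB zinc-finger and TRIM partners, 3 of 9 tested genes rose and 1 fell, 44.4% called against 25.2% of all tested loci. The median was 0.01, and 2 were called under quantile normalization. Zfp568, a KRAB zinc-finger gene, averaged 65.8 ± 2.48 FPKM in null and 49.7 ± 0.933 FPKM in control libraries (limma adjusted p = 0.00113). Zfp809, whose protein recruits TRIM28 to the primer binding site of murine leukaemia viruses, averaged 30.6 ± 1.21 FPKM in null and 24.3 ± 2.0 FPKM in control libraries (limma adjusted p = 0.0124). Yy1 rose to 60.4 FPKM in null, against 54.4 FPKM in control libraries, and Zfp708 fell to 4.14 FPKM, against 5.03 FPKM. The locus counted for Zfp708 also carries the symbol Rslcan18. Trim24 and Trim33, close relatives of Trim28, did not pass (0.15 and -0.06 on the log2 scale, limma adjusted p = 0.125 and 0.358).

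Of the other H3K9 methyltransferases and partners, 1 of 7 tested genes rose and 1 fell, near the 25.2% of all loci (1 called under quantile normalization or median centring), with a median of 0.10. Ehmt2, which encodes the dimethyltransferase G9a, averaged 40.2 ± 2.39 FPKM in null and 33.9 ± 1.14 FPKM in control libraries (limma adjusted p = 0.0186). Wiz, a zinc-finger partner of the G9a complex, averaged 4.87 ± 0.418 FPKM in null and 6.14 ± 0.323 FPKM in control libraries (limma adjusted p = 0.0366). Ehmt1, the partner enzyme of G9a, did not pass (0.13, limma adjusted p = 0.186).

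In the list of HUSH, MORC and SETDB1-associated silencers, 4 of 10 tested genes rose and 0 fell by limma. Of all tested loci, 25.2% were called. The median of the list was 0.11. At an unadjusted p under 0.05 stood 6 of the 10, against 39.2% of all tested loci. Among the 6, Morc2a was lower, at 30.8 FPKM in null and 33.7 FPKM in control libraries (limma adjusted p = 0.11). Morc2a lies on chromosome 11, whose loci were lower as a group. Under quantile normalization 2 of the 10 were called. The locus 2810474O19Rik, an older name of Resf1, whose protein works with SETDB1 in silencing retroviruses, averaged 82.5 ± 1.56 FPKM in null and 63.6 ± 1.87 FPKM in control libraries (limma adjusted p = 0.00105). Hells, a remodeller needed for DNA methylation of repeats, averaged 286 ± 9.86 FPKM in null and 224 ± 4.57 FPKM in control libraries (limma adjusted p = 0.00123). Morc3 and Smarcad1 rose by smaller amounts, to 70.3 and 96.6 FPKM in null, against 62.4 and 87.8 FPKM in control libraries. Of the HUSH complex itself, Fam208a (TASOR) differed by -0.0039, Mphosph8 by 0.15 and Pphln1 by 0.01 on the log2 scale, and all missed the threshold.

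Of the histone H3 genes and chaperones, 2 of 12 were higher and 1 lower, a share of 25.0% against 25.2% of all tested loci, with a median of 0.02. The count was 1 under quantile normalization and 5 when each library was divided by its FPKM sum. H3f3b, 1 of the genes for H3.3, averaged 275 ± 0.924 FPKM in null and 360 ± 6.22 FPKM in control libraries (limma adjusted p = 4.49e-04). H3f3b lies on chromosome 11, whose loci were lower as a group. H3f3a, which encodes the same protein, did not pass (-0.06, limma adjusted p = 0.246). The chaperone genes Asf1b and Nasp rose to 37.6 and 390 FPKM in null, against 32.7 and 359 FPKM in control libraries, and Hira did not pass (-0.0022, limma adjusted p = 0.981).

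Of the HP1-associated proteins and H4K20 methyltransferases, limma called 0 of 8 in either direction (1 under quantile normalization), against 25.2% of all tested loci. An unadjusted p under 0.05 was reached by 1 of the 8, Senp7, against 39.2% of all tested loci. Senp7 averaged 2.95 ± 0.788 FPKM in null and 1.90 ± 0.206 FPKM in control libraries (limma adjusted p = 0.0714). Lbr, an inner nuclear membrane protein that binds HP1, averaged 74.8 FPKM in null and 80.1 FPKM in control libraries (limma adjusted p = 0.138). In the H3K9 demethylase list 2 of 9 rose and 0 fell, 22.2% called against 25.2% of all tested loci. At an unadjusted p under 0.05 stood 3 of the 9, against 39.2% of all tested loci. Among the 3, Phf8 was lower, at 7.10 FPKM in null and 8.09 FPKM in control libraries. Kdm3a averaged 120 ± 13.7 FPKM in null and 96.1 ± 1.42 FPKM in control libraries (limma adjusted p = 0.0219), and Jmjd1c averaged 43.4 ± 0.567 FPKM in null and 36.1 ± 1.05 FPKM in control libraries (limma adjusted p = 0.00409). The SUMO pathway, which modifies TRIM28 and so lets SETDB1 dock, had 3 of 10 genes higher and 0 lower, near the background share, with 5 at an unadjusted p under 0.05. Under quantile normalization 1 of the 10 was called. Sumo3 rose to 68.5 FPKM in null, against 56.5 FPKM in control libraries, and Pias2 to 76.0 FPKM, against 68.6 FPKM.

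**Figure D4:**
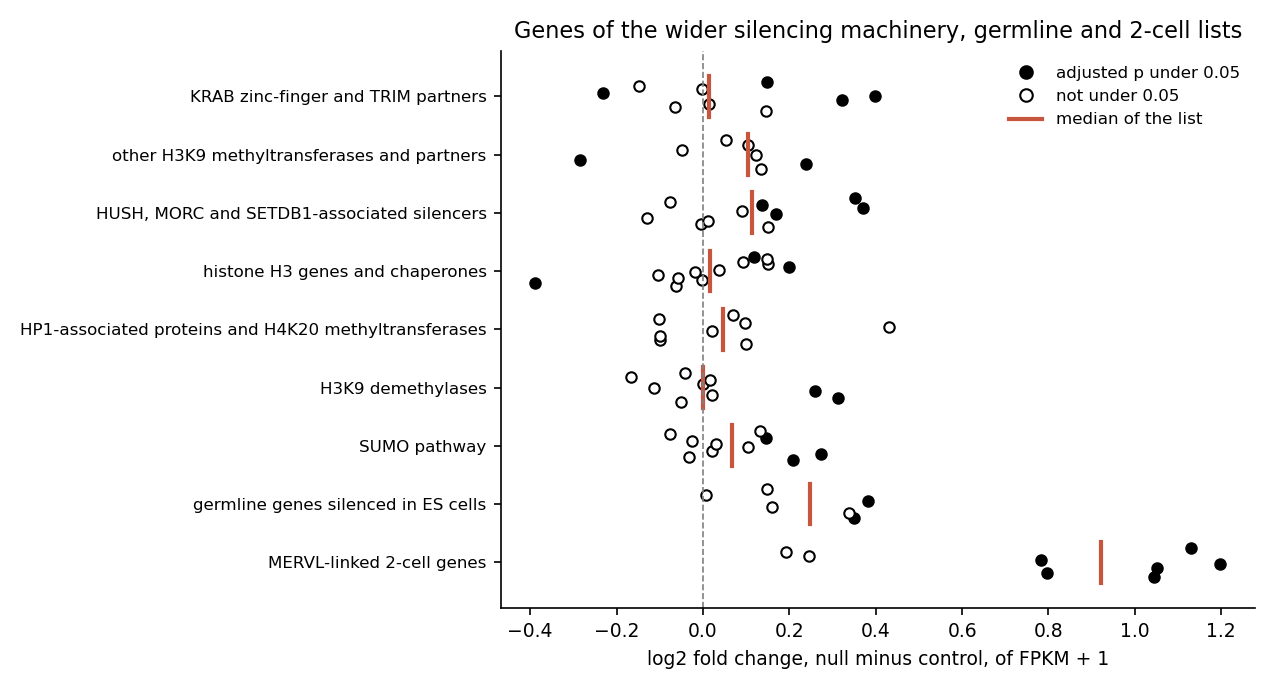
Log2 fold change of FPKM + 1, null minus control, of each tested gene in 9 lists; filled points passed a limma adjusted p of 0.05, and red bars are list medians. The medians of the lists of silencing factors and demethylases lie between 0 and 0.11, the germline list at 0.25 and the MERVL-linked list at 0.92.

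Genes described as held down by silent chromatin were read from 2 lists, because the files list genes and no retroelement families. Germline genes of the list were expressed in control libraries too. Sycp3 averaged 21.2 FPKM in null and 21.0 FPKM in control libraries and did not pass (limma adjusted p = 0.971). Of 6 tested germline genes, 2 rose and 0 fell by limma, 33.3% against 25.2% of all tested loci, with a median of 0.25. With a pseudocount of 5 the count was 1. An unadjusted p under 0.05 was reached by 3 of the 6, against 39.2% of all tested loci. Stk31 averaged 9.49 ± 1.14 FPKM in null and 7.02 ± 0.163 FPKM in control libraries (limma adjusted p = 0.0189). Mael, a piRNA pathway gene, averaged 12.1 ± 1.73 FPKM in null and 9.22 ± 0.893 FPKM in control libraries (limma adjusted p = 0.0494), close to the threshold. The MERVL-linked genes of the 2-cell embryo had 6 of 8 tested members higher and 0 lower by limma. An unadjusted p under 0.05 was reached by 6 of the 8, against 39.2% of all tested loci. The share called was 75.0%, Tdpoz3 included, against 25.2% of all tested loci. Of the 8, Tdpoz3 and Zfp352 averaged 0.831 and 0.944 FPKM in control libraries and passed the minimum of 1 FPKM only through the null libraries, so the call of Tdpoz3 is no support for the list. Zscan4c averaged 24.8 ± 1.95 FPKM in null and 11.5 ± 0.0826 FPKM in control libraries (limma adjusted p = 1.40e-04), and Gm5662 and Zscan4f were 2.39 and 2.26 times the control level. These belong to multi-copy families whose copies can share reads, so the single values are uncertain. Several of the 6 calls are copies of the same family and are not independent.

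The loci whose log2 values followed a member most closely over the 6 libraries were picked, as a description, among 5883 named loci averaging 10 FPKM or more. For Setdb1 they were St5, Mphosph6 and Rpl39l, with Pearson r of 0.999, 0.998 and 0.997. For Atrx they were Zcchc11, Dbf4 and Tmx2, with r of 0.999, 0.998 and 0.998. Both sets were higher in null libraries, from 0.22 for Dbf4 to 0.72 for Rpl39l on the log2 scale. For Trim28, whose groups overlap, they were Celf1, Usp38 and Isca2, with r of 0.988, 0.988 and 0.985. With 6 libraries in 2 groups, any locus that separates the groups with little spread reaches a high r.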

How the data were processed

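The 6 libraries were made from total RNA after removal of ribosomal RNA, per the labels' protocols. Tools named in the submitters' processing notes, with no versions, are TopHat, Cuffdiff, FastQC and Trim Galore, and the build is mm10. The deposited files give 1 value per locus and library, with a symbol and RefSeq accessions per the file headers. No header names a unit; the deposited values were read as the authors' FPKM, being fractional with library totals that differ. For scaling between libraries and use of strand, the sources used here give nothing. No counts are in the files used here, so count tests were not run and depth is a rough reading of low values in genes of at least 1500 bases.

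limma 3.58.1 (R 4.3.3; lmFit, eBayes with trend) was fitted on log2(FPKM + 1) over the 11480 loci averaging 1 FPKM or more, null minus control, with Benjamini-Hochberg adjustment at 0.05 over all of them. Fold changes on this scale understate those of low genes. Ratios between members were tested by exact permutation (SciPy 1.17.1). In simulated data of 11480 loci with 200 changed loci a run, the fit recovered 43.3% of those changed 1.25-fold and 75.3% of those changed 1.5-fold. The data had 2894 called loci, and with fewer changed loci the adjusted threshold is stricter. These shares therefore do not give the sensitivity behind the members that were not called. Near-identical transcripts were searched with BLAST 2.17.0 in GENCODE M21. Positions and promoter sequences are RefSeq's on GRCm38.p6, where 23205 loci were placed.

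Members and lists were chosen with earlier results of these data known. The text names all members, Zscan10, up to 4 called genes per list by size of change (otherwise the gene with the highest level), and the 3 loci most like Trim28, Setdb1 and Atrx. Trim24, Trim33, Ehmt1, Fam208a, Mphosph8, Pphln1, Morc2a, Senp7, Phf8, Sycp3, H3f3a, Hira, Cers2, Dclre1c, Col1a1, Col3a1, Thy1, Acta2, Tagln, Tubb3, Hand1, Esx1, Krt19, Eomes, Zfp352, Esrrb and Zfp42 were named after their values were seen. The values of 1 gene that the rule names are not reported here.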

Additional observations from a re-analysis of the deposited data

How the results depend on the processing

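Each member was recomputed under 16 alternatives (pseudocounts of 0.1 and 5, no minimum or a minimum of 5 FPKM, median centring, quantile normalization, division by the FPKM sum, no variance trend, a replicate block, the chromosome median and each library left out). Of the 160 member values, 157 kept direction and call and 0 changed call. The 3 others reversed: under quantile normalization Cbx1 was at -0.0089 and Cbx3 at -0.042 on the log2 scale, and without null replicate 2 Cbx1 was at -0.00014 (with 1 library left out it ran from there to 0.088); the cause was not tested. Adjusted p-values reached at most 0.00815 for Atrx, 0.0144 for Setdb1 and 0.0435 for Cbx5, and at least 0.0607 for the other members. The count of members past the threshold was 3 throughout. With 1 library left out, where fewer samples enter, that of all loci ran from 1697 (without control replicate 2) to 2903 (without null replicate 1). It was 1741 without control replicate 1. Of 45 recomputed list counts, 9 moved by over 1.5 times, 6 of them under quantile normalization (KRAB and TRIM 2 in place of 4, H3K9 methyltransferases 1 in place of 2, HUSH and MORC 2 in place of 4, histone H3 1 in place of 3, SUMO 1 in place of 3, HP1-associated 1 in place of 0); over all lists the count was 19 there and 26 as reported. The germline count was 1 with a pseudocount of 5 and 2 as reported.

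No clear pairing by replicate number was seen. Same-numbered libraries had correlations of -0.0024, 0.108 and 0.0527 in their deviations from the group means. Those of differently numbered libraries ran from -0.222 to 0.163. With 3 libraries per group these values cannot exclude pairing. With the replicate block 2264 loci and the same number of members, 3, passed, and the differences of shares and ratios were, by construction, the same: -1.01 and 3.26 points for the Cbx3 and Suv39h1 shares and -0.25 and -0.40 for the Atf7ip to Setdb1 and Daxx to Atrx ratios, with exact sign-flip p of 0.5 for the Cbx3 share and 0.25, the smallest that 3 pairs allow, for the others. With 1 library left out, the Cbx3 share differed by -1.41 to -0.434 points, the Suv39h1 share by 2.67 to 4.09 points, and the log2 ratios by -0.30 to -0.19 and by -0.45 to -0.32.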
